A study of Mus musculus with 10 samples.

Results

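The cells described here were lymph node neutrophils with at least 1 Mmp8 UMI and no Hcar2 UMI, taken from 1 single-cell RNA library of mouse axillary lymph nodes. A UMI is a molecular tag that counts 1 captured RNA molecule. The neutrophil gate asked that S100a8 and S100a9 together make up at least 1% of a cell's UMIs, with at least 1 Csf3r UMI, no Cd3e UMI, fewer than 2 Cd79a UMIs and fewer than 3 C1qa and C1qb UMIs. This rule found 394 cells among 5413 that passed the filters in that library, and among 51628 in the 5 gene libraries of the series. The 394 were part of 1670 cells in the gate, beside 867 cells with an Hcar2 UMI and 409 with neither gene. The members were chosen by their own counts of Mmp8, Hcar2 and the gate genes, so the levels of those genes are given only as a description.

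The study set lymph nodes draining a mammary tumour against nodes of mice without one, in wild-type female BALB/C mice of 8 weeks. The 4T1 group carried tumours of the metastatic line 4T1, and the 67NR group tumours of the related non-metastatic line 67NR. Both lines had been placed in mammary pad 4 and grown for 18 days, to 500 mm3. The naive group was untreated. The title of the series names a Tlr4-dependent axis between fibroblasts and monocytes in such nodes. At least 3 mice were used per condition, according to the series, all under 1 antibody hashtag, and the cells cannot be assigned to mice. The library held sorted myeloid and stromal cells, so the shares below are shares of sorted cells, and the sort may set them.

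Because each condition is 1 sample, no test between conditions is possible. Values are given with exact 95% intervals that cover counting error only, not the spread between mice. Levels are UMIs summed over the cells of a condition and expressed per 1000000 UMIs (CPM), and a ratio of levels is on the log2 scale. A gene counted as measured in a comparison when the group with the higher level held 50 UMIs or more. "Past 2-fold" means a log2 ratio of at least 1 in size, and higher or lower refers to the first group named.

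Neutrophils are made in the bone marrow and acquire their granules in sequence. Primary granules with myeloperoxidase and elastase are made in early precursors, secondary granules with lactoferrin (Ltf), cathelicidin (Camp), neutrophilic granule protein (Ngp) and the collagenase encoded by Mmp8 come next, and tertiary granules with gelatinase follow. Transcripts of the granule proteins decline as the cells leave the marrow, which is why secondary granule transcripts are used to mark recently made neutrophils. Neutrophils that are activated in tissue switch on cytokine and NF-kB target genes. Hcar2 encodes the receptor for niacin and beta-hydroxybutyrate.

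Mmp8 lies on chromosome 9, from 7558456 to 7568485 on the plus strand of GRCm38, and is protein coding (ENSMUSG00000005800). Ngp, Ltf and Camp lie on the same chromosome, and Retnlg, which encodes a resistin-like secreted protein of neutrophils, on chromosome 16. Their promoters are shown because these genes mark the cells described. Each window runs from 250 bases before to 50 after the start of the gene in RefSeq's GRCm38.p6 annotation, read 5' to 3' on the strand of the gene. Capitals mark TTGCNNAA, a C/EBP-type motif, on either strand.
Mmp8 promoter, chr9:7558179-7558478, plus strand: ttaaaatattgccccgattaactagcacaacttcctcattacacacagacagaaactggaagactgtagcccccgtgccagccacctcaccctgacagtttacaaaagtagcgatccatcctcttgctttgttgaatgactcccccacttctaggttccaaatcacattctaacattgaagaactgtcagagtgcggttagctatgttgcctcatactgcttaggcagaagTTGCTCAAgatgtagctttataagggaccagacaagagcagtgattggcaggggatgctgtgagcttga
Retnlg promoter, chr16:48872358-48872657, plus strand: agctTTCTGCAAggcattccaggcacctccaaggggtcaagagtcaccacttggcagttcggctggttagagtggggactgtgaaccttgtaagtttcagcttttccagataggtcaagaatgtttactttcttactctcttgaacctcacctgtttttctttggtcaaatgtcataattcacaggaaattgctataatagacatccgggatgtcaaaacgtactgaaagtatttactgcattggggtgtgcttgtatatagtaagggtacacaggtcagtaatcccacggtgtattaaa
Ngp promoter, chr9:110419558-110419857, plus strand: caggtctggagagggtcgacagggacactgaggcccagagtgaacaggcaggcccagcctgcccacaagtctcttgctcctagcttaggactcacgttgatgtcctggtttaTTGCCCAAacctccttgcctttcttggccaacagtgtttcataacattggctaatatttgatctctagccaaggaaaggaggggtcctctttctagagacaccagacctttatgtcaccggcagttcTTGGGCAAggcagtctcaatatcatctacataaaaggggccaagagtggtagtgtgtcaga
Ltf promoter, chr9:111019042-111019341, plus strand: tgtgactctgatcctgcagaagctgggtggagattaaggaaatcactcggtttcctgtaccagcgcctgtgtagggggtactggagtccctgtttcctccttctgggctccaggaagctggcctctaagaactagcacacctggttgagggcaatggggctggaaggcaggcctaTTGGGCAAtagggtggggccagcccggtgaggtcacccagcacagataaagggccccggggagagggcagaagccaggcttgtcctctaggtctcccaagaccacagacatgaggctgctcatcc
Camp promoter, chr9:109849407-109849706, minus strand: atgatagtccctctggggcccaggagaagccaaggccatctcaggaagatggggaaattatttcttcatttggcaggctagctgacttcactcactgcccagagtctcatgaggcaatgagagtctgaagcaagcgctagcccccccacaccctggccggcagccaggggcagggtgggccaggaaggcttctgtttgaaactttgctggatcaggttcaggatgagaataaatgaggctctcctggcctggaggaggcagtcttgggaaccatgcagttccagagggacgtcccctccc
The motif stood in 1 place in the Mmp8 window, 19 bases before the start (-19). It stood in 1 place in the Retnlg window, in 2 in the Ngp window and in 1 in the Ltf window, and these letters are not in the Camp window. Of 32851 promoters of that length, 10.8% held the motif. In the secondary and tertiary granule lists, 18 of 25 genes matched a promoter by symbol, and 6 of those 18 held it (Adam8, Anxa1, Lcn2, Ltf, Ngp and Slpi). Among 24 promoters of early NF-kB target genes, 1 held it. The NF-kB-type motif GGGANNNTCC, on either strand, stood in 4.59% of all promoters, in 2 of the 18 granule promoters and in 5 of the 24 NF-kB target promoters. GAGGAAGT, a PU.1-type motif, stood in 3.20%, in 2 of 18 and in 1 of 24. TTCNNNGAA, a STAT-type motif, stood in 8.30%, in 1 of 18 and in 4 of 24. The letters of the motifs can overlap, the motifs were chosen after the values were known, and a match is not a binding site.

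All 11 markers of the neutrophil list were detected in each condition. The rule itself used S100a8, S100a9, Csf3r and Mmp8, so those are no check of the label, and S100a9 and S100a8, the subunits of calprotectin, were the most abundant transcripts in all 3 conditions. The rule did not use the other 7, which were Retnlg, Cxcr2, Ly6g, Mmp9, Camp, Ngp and Ltf. Retnlg was detected in 75.8% of the 4T1 cells, 89.2% of the 67NR cells and 80.5% of the naive cells. Basophil, mast cell, erythroid, eosinophil and platelet marker lists each summed to at most 6.25 CPM in any condition. Other lists were higher. Plasma cell markers summed to 186.7 CPM in 4T1, 70.997 in 67NR and 84.8 in naive cells, with 3 or more UMIs in 29 of the 66 cells from 4T1. Macrophage markers summed to 100.9, 15.07 and 132.4 CPM, and endothelial markers to 66.99, 5.84 and 22.96 CPM. Of the T cell markers, Trac and Trbc2 were at 0 as Cd3e was by rule, while Cd3d, a chain of the T cell receptor complex, was present at 24.1 CPM in 4T1, 189 in 67NR and 90.1 in naive cells.

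A part of the cells also held monocyte transcripts. Ccr2, the receptor for monocyte chemoattractants, or F13a1, coagulation factor XIII, was detected in 25 of 66 cells from 4T1 (37.9%), 20 of 251 from 67NR (7.97%) and 16 of 77 from naive nodes (20.8%). In 4T1 and naive nodes these cells were deeper and poorer in calprotectin. Their median was 23426 UMIs and 3.20% S100a8 and S100a9 in 4T1, against 10527 UMIs and 20.8% in the 4T1 cells without either gene. In 67NR they had 7679 UMIs and 24.96% S100a8 and S100a9, against 6759 UMIs and 24.1%. In naive nodes they had 8250.5 UMIs and 4.03%, against 4128 UMIs and 10.5%. The part of doublets in these cells was not tested. The hashtag rule acts against doublets between conditions, but how fully it removed them was not tested. With a hashtag 10 times the next, 39 of the 66 members in 4T1 were left. Doublets within a condition stay in, and no doublet caller was run.

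**Figure D1:**
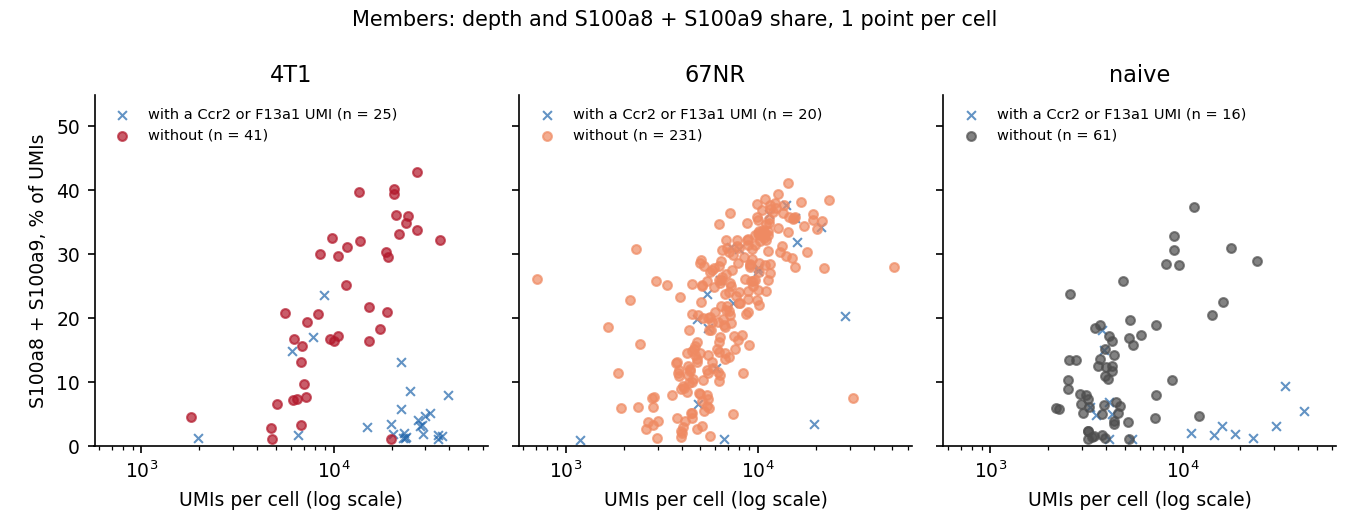
UMIs per cell (log axis) against the share of UMIs from S100a8 and S100a9 (percent), for each of the 394 cells in 4T1, 67NR and naive nodes. Crosses are cells with a Ccr2 or F13a1 UMI; in 4T1 they gather at high UMIs and a low calprotectin share (median 3.20%), which they do not in 67NR (24.96%).

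The summed monocyte markers (Ly6c2, Ccr2, Csf1r, F13a1, Ms4a4c) reached 1545 CPM in 4T1, 472 in 67NR and 666 in naive cells. Without the cells holding Ccr2 or F13a1 the sums were 153, 434 and 222 CPM. Dendritic cell markers summed to 563 CPM in 4T1, 130 in 67NR and 1748 in naive cells, and to 83.9, 84.4 and 341 CPM without those cells, with Xcr1 at 0. Fibroblast markers summed to 542 CPM in 4T1, 193 in 67NR and 49.6 in naive cells after that removal, and the median cell of each condition held none. Shares of cells at full depth and counts over all genes are therefore given below for all cells and for the 41 cells from 4T1, 231 from 67NR and 61 from naive nodes without Ccr2 and F13a1, and most values of single genes and lists for these cells alone. That removal was chosen after the values were seen, and it sets Ccr2 and F13a1 to 0.

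The label calls these cells young, and the secondary granule transcripts that would mark such cells differed widely in how often they were found. Without Ccr2 and F13a1, Lcn2, the lipocalin of these granules, was detected in 92.7% of the 4T1 cells, 77.5% of the 67NR cells and 55.7% of the naive cells. Ltf was detected in 31.7% of the 4T1 cells, 18.6% of the 67NR cells and 9.84% of the naive cells. Camp was detected in 26.8%, 27.3% and 11.5% of them. Ngp was detected in 48.8%, 50.6% and 27.9%. The primary granule genes were nearly silent: Elane and Ctsg had no UMI, and Mpo had none in 4T1 and naive cells and 1 in 67NR. Mki67, a marker of dividing cells, was detected in 4.88% of the 4T1 cells, 3.90% of the 67NR cells and 1.64% of the naive cells, and 87.8% of its UMIs in 67NR came from 3 cells. The cells are called Mmp8-positive, Hcar2-negative neutrophils below.

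Members at the edge of the rule were common. A lone Mmp8 UMI was the ground for inclusion in 16 of 66 cells from 4T1 (24.2%), 53 of 251 from 67NR (21.1%) and 37 of 77 from naive nodes (48.1%). The median was 5.5 Mmp8 UMIs in 4T1, 5 in 67NR and 2 in naive cells. Just outside the rule, cells of the gate with Mmp8 and exactly 1 Hcar2 UMI numbered 32 in 4T1, 107 in 67NR and 37 in nodes of naive mice. Cells with neither gene numbered 52, 127 and 230. As a measure of free RNA in the droplets, Mmp8 was detected in 0.441% of 227 B cells and 1.6% of 500 fibroblasts, whose median depths were 14139 and 18145 UMIs. S100a8 was detected in 68.3% of those B cells, so a calprotectin UMI by itself marks no neutrophil.

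Mmp8-positive, Hcar2-negative neutrophils formed a larger share of the cells in 67NR nodes than in the other nodes. They were 4.4% of the 4T1 cells used (66 of 1501, 3.42 to 5.56%), 14.5% of the 67NR cells (251 of 1732, 12.9 to 16.2%) and 3.53% of the naive cells (77 of 2180, 2.80 to 4.39%). Within the neutrophil gate they were 25.1% in 4T1 (66 of 263, 19.97 to 30.8%), 32.9% in 67NR (251 of 762, 29.6 to 36.4%) and 11.9% in nodes of naive mice (77 of 645, 9.54 to 14.7%). In the gate, the 4T1 and 67NR intervals overlap and both lie above the naive one. With members holding Ccr2 or F13a1 left out and the denominators unchanged, this was not so. The shares of the gate were then 15.6% in 4T1 (41 of 263, 11.4 to 20.5%), 30.3% in 67NR (231 of 762, 27.1 to 33.7%) and 9.46% in nodes of naive mice (61 of 645, 7.31 to 11.98%). The 4T1 interval overlapped the naive one and lay below that of 67NR. The shares of cells used were then 2.73% in 4T1 (1.97 to 3.69%), 13.3% in 67NR (11.8 to 15.03%) and 2.80% in nodes of naive mice (2.15 to 3.58%), with 4T1 and naive overlapping and in the reverse order. All cells with Ccr2 or F13a1 stayed in these denominators, which lowers the shares. Whether the intervals overlap with such cells also taken out of the denominators was not tested.

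Depth touches both conditions of the rule, since a deeper cell is likelier to show Mmp8 and likelier to show Hcar2. The members' median depth was 16360.5 UMIs in 4T1, 6825 in 67NR and 4301 in nodes of naive mice. For all members, after each gate cell was thinned to 1000 UMIs, 20.3% of 261 cells in 4T1 (15.6 to 25.7%), 31.6% of 756 in 67NR (28.3 to 35.1%) and 7.67% of 639 in naive nodes (5.73 to 10.0%) met the Mmp8 and Hcar2 conditions. After thinning to 2500 UMIs, with 8, 34 and 50 shallower cells left out, the shares were 26.7% of 255 in 4T1, 40.5% of 728 in 67NR and 12.6% of 595 in naive nodes. At both depths the order was 67NR, 4T1, naive, and the intervals at 2500 UMIs (21.3 to 32.5%, 36.9 to 44.2% and 10.0 to 15.5%) did not overlap. These shares include the cells with Ccr2 or F13a1, and thinned shares without them were not computed.

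Within the gate, detection of Mmp8 differed more between conditions than detection of Hcar2. Any Mmp8 UMI was found in 58.2% of the 4T1 gate, 63.4% of the 67NR gate and 26.8% of the naive gate. Any Hcar2 UMI was found in 55.1%, 50.4% and 52.4%. At 2500 UMIs per cell, Mmp8 was found in 41.2% in 4T1, 53.7% in 67NR and 19.8% in nodes of naive mice, and Hcar2 in 33.7%, 32.0% and 43.4%. Cells with both transcripts made up 33.1% of the gate in 4T1, 30.4% in 67NR and 14.9% in nodes of naive mice.

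**Figure D2:**
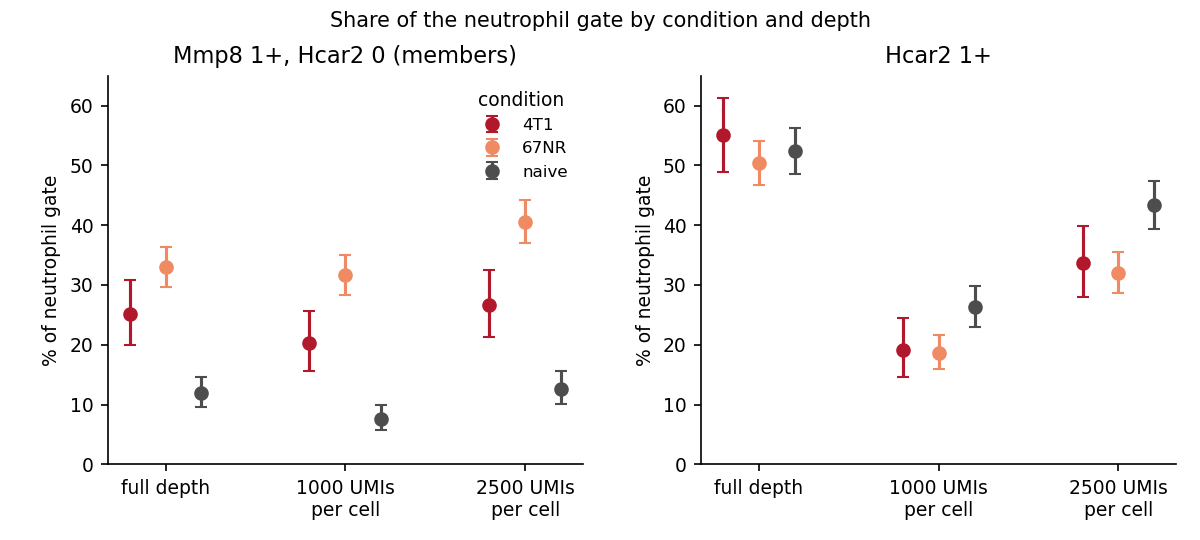
Share of the neutrophil gate (percent) that met the Mmp8 and Hcar2 conditions, and share with any Hcar2 UMI, in 4T1, 67NR and naive nodes, at full depth and after thinning each cell to 1000 and 2500 UMIs; bars are exact 95% counting intervals. The share of members is highest in 67NR and lowest in naive nodes at each depth (40.5% and 12.6% at 2500 UMIs), with cells holding Ccr2 or F13a1 included.

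In 4T1 nodes against naive nodes, transcripts of Wfdc17, Prok2 and Ifitm1 were past 2-fold higher and 7 of 13 measured immediate early genes past 2-fold lower, without Ccr2 and F13a1. Among all members, 2748 genes were measured, of which 11.1% were past 2-fold higher and 9.5% past 2-fold lower (20.6% together). Without Ccr2 and F13a1 the figures were 1252 genes, 7.75% higher and 17.4% lower (25.2% together). Of the 567 genes past 2-fold among all members, 236 were still measured without those cells, of which 196 kept their direction past 2-fold and 6 changed sign. The 10 highest genes over all members included Hbegf, Itga1, Vcan, F13a1, Dab2 and Tfec, and the cells with Ccr2 or F13a1 held these: Vcan, a matrix proteoglycan, had 560 CPM in 4T1 and 33.5 in naive cells over all members, and 0 and 1 UMIs without the cells holding Ccr2 or F13a1. The lowest over all members included the chemokines Cxcl1 (18.8 CPM in 4T1, 678 in naive cells) and Ccl7 (16.1 and 339 CPM), which were no longer measured after the removal. Of the naive UMIs, 4 cells held 95.1% of the 384 of Cxcl1 and 97.4% of the 192 of Ccl7. The values that follow are without Ccr2 and F13a1 unless stated.

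Wfdc17, a small secreted protease inhibitor of the whey acidic protein family, was an abundant transcript that was higher in 4T1. It had 13372 CPM in 4T1, 1303 in 67NR and 773 in naive neutrophils, which is a log2 ratio of 4.11 for 4T1 over naive (3.93 to 4.29). It ranked sixth in 4T1. Over all members the ratio was 3.35. After thinning to 2500 UMIs, which kept 40 cells from 4T1, 223 from 67NR and 59 from naive nodes, Wfdc17 was detected in 97.5% of the 4T1 cells, 54.3% of the 67NR cells and 28.8% of the naive cells, against 6.45%, 9.38% and 6.06% of B cells in the same nodes. So the share was several times that of B cells in each condition, and the conditions stood in the order 4T1, 67NR, naive. The Hcar2 neutrophils of the same nodes had the same order, at 98.5%, 66.7% and 33.4%, so Wfdc17 was not particular to the Hcar2-negative cells.

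Prok2, also called Bv8, encodes a secreted ligand of prokineticin receptors. It had 380 UMIs in 4T1 (693 CPM), 174 in 67NR (94.2 CPM) and 1 in naive cells (2.92 CPM). The log2 ratio for 4T1 over naive was 7.89 (5.41 to 13.20), with the upper end loose because of the lone naive UMI. After thinning it was detected in 35.0% of the 4T1 cells, 8.97% of the 67NR cells and 1.69% of the naive cells, and in B cells in 1.08%, 0 and 0. The share thus stood above that of B cells in both tumour groups and near it in naive nodes.

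Ifitm1, an interferon-induced membrane protein, had 6990 CPM in 4T1, 1217 in 67NR and 875 in naive cells (log2 ratio for 4T1 over naive 3.00, 2.83 to 3.17). Igfbp6, an insulin-like growth factor binding protein, had 308, 13.5 and 8.75 CPM (5.14, 3.57 to 7.43). Igfbp6 was detected after thinning in 40.0% of the 4T1 cells, 4.48% of the 67NR cells and 3.39% of the naive cells. Fibroblasts carried it in 50.7 to 61.6% of cells, and B cells in 2.08 to 3.03%, so in 67NR and naive nodes the share was near that of B cells.

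The stefin A genes, cysteine protease inhibitors of myeloid cells, and the S100 genes leaned to 4T1. Of 17 genes on that list 11 were measured, and 7 were past 2-fold higher and none lower. Of all genes measured, 7.75% were past 2-fold higher and 17.4% lower. The list's median log2 ratio was 1.06, against -0.28 over all genes measured. Stfa2 had 3117 CPM in 4T1, 446 in 67NR and 362 in naive cells (3.11 for 4T1 over naive, 2.84 to 3.38). Few cells carried it. Over all members, 4 cells from 4T1 held 62.6% of its 1776 UMIs there. In 67NR 13 cells held 72.5% of 1076, and in naive nodes 4 cells held 81.7% of 169. The stefin A genes are near-identical copies, so the split of counts between Stfa2, Stfa3, Stfa2l1 and the Cstdc genes is uncertain. S100a6 had 12459, 8091 and 4771 CPM (1.38). S100a8 had 118321 CPM in 4T1, 106797 in 67NR and 63994 in naive cells (0.89), and S100a9 had 148563, 149590 and 99798 CPM (0.57), so calprotectin did not pass 2-fold.

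Saa3, an acute phase serum amyloid, shows how far a few cells can carry a sum. It had 1217 CPM in 4T1, 34.1 in 67NR and 5.84 in naive cells, but 79.2% of its 667 UMIs in 4T1 came from 3 cells. Clec3b, Col3a1 and Fn1, also among the 10 highest, are fibroblast genes and were held by few cells in the same way.

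Among genes of glycolysis, 3 of 11 measured (of 18) were past 2-fold higher in 4T1, beside 7.75% of all genes measured, and 1 was lower. Those higher were Gapdh (1657 CPM in 4T1, 1070 in 67NR, 776 in naive cells, log2 ratio 1.09), Ldha (394, 228 and 166 CPM, 1.24) and Eno1 (219, 142 and 90.5 CPM, 1.28). Slc2a3, a glucose transporter, went the other way with 80.3, 292 and 353 CPM (-2.14). The list's median log2 ratio was 0.77, beside -0.28 over all genes measured.

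Of 16 immediate early genes 13 were measured, none was past 2-fold higher in 4T1 and 7 were past 2-fold lower, beside 7.75% higher and 17.4% lower of all genes measured. Their median log2 ratio was -1.02, beside -0.28 over all genes. Over all members 6 of 15 were past 2-fold lower (median -0.87), beside 9.5% of all genes measured there (median 0.21). Dusp1, a phosphatase of MAP kinases, had 573 CPM in 4T1, 1047 in 67NR and 2002 in naive cells (-1.80). Nr4a1, a nuclear receptor induced within minutes of stimulation, had 43.8, 41.1 and 193 CPM (-2.14, -2.88 to -1.44).

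Of 23 early NF-kB targets 16 were measured, 8 were past 2-fold lower and 2 higher, beside the same 17.4% and 7.75% of all genes, with a median log2 ratio of -0.97. Over all members 9 of 21 were lower and 2 higher (median -0.76), beside 9.5% lower and 11.1% higher of all genes measured there (median 0.21). The 8 were Bcl2a1b, Il1rn, Nfkb1, Nfkbiz, Ptgs2, Sod2, Tnfaip2 and Zfp36. Nfkbiz, an atypical IkB protein, had 252 CPM in 4T1, 477 in 67NR and 826 in naive cells (-1.71). The 2 higher were the chemokines Cxcl3, with 270, 137 and 43.8 CPM (2.63), and Ccl3 (1.16). Over all members, 4 cells from 4T1 held 64.9% of the 171 Cxcl3 UMIs and 69.9% of the 166 Ccl3 UMIs there. Il1b, the most abundant cytokine of these cells, had 6940 CPM in 4T1, 7595 in 67NR and 9808 in naive cells (-0.50).

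Among the 10 lowest genes, several encode surface or secreted proteins. Thbs1, thrombospondin, had 89.4 CPM in 4T1, 709 in 67NR and 1234 in naive cells (-3.79, -4.24 to -3.36, and -1.75 over all members). After thinning it was detected in 5% of the 4T1 cells, 41.3% of the 67NR cells and 50.8% of the naive cells. Cd80, a ligand of the T cell costimulatory receptor CD28, had 111, 336 and 765 CPM (-2.78, -3.21 to -2.37, and -1.26 over all members). Its detection after thinning was 20%, 51.6% and 78.0%, against at most 5.21% of B cells.

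The Hcar2 neutrophils showed the same order for Cd80, at 24.6% in 4T1, 47.5% in 67NR and 72.5% in nodes of naive mice. Il15, a cytokine for lymphocytes, had 49.3, 143 and 359 CPM in the Mmp8-positive, Hcar2-negative cells (-2.86), and Cxcr4, the receptor that holds neutrophils in marrow, had 54.7, 86.1 and 295 CPM (-2.43). Ccr7 and Ccl5 were also among the lowest, but 3 naive cells held 91.5% of the 59 Ccr7 UMIs and 96.1% of the 332 Ccl5 UMIs. The other lowest genes were Rsad2 (-3.07, and -0.70 over all members), Bcl2a1d (-3.48, a near-identical copy of other Bcl2a1 genes), Vps37b (-2.92), Maml3 (-2.92) and Nr4a3 (-2.78).

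The granule genes gave one answer as sums and another as shares of cells. As sums, 4 of 12 measured secondary granule genes were past 2-fold lower in 4T1 than in naive cells (Camp, Chil3, Ltf, Olfm4). Another 2 genes on the secondary granule list were past 2-fold higher (Cd177, Ltb4r1), of which Ltb4r1 is also on the list of chemoattractant receptors. Of all genes measured, 17.4% were past 2-fold lower and 7.75% higher. Camp had 858 CPM in 4T1, 4298 in 67NR and 5054 in naive cells (-2.56). However, 94.5% of the 1732 naive Camp UMIs and 96.3% of the 790 naive Ltf UMIs came from 3 cells. As shares after thinning, Camp was detected in 22.5% of the 4T1 cells, 22.4% of the 67NR cells and 11.9% of the naive cells. Lcn2 was detected in 82.5%, 71.3% and 49.2%, and Cd177, a surface protein of neutrophils, in 37.5%, 30.5% and 15.3%. B cells showed Lcn2 and Cd177 in none of 93, 96 and 33 cells after the same thinning. At full depth Lcn2 was detected in 8.37% of 227 B cells and 11.8% of 500 fibroblasts, and Cd177 in 0% and 0.4%.

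**Figure D3:**
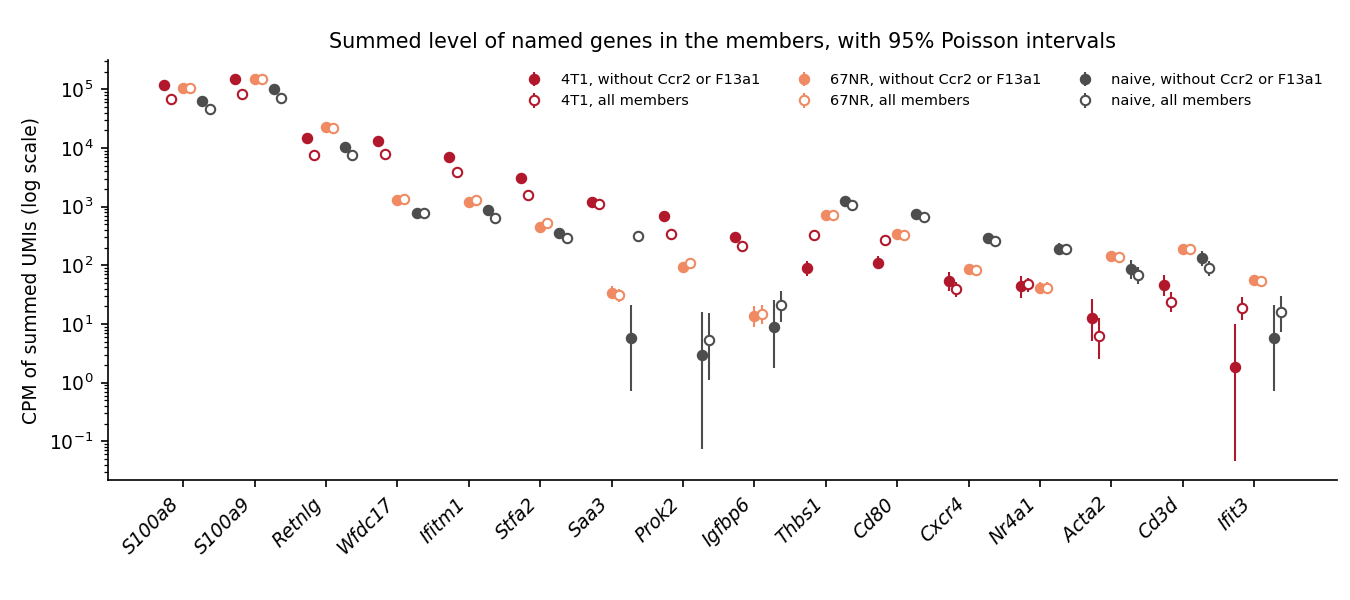
Summed levels (CPM, log axis) of 16 genes in 4T1, 67NR and naive neutrophils of the Mmp8-positive, Hcar2-negative class, with exact 95% Poisson intervals; filled points are without cells holding Ccr2 or F13a1, open points are all cells. Wfdc17 (13372, 1303 and 773 CPM) and Prok2 run from 4T1 down to naive, while Thbs1 (89.4, 709 and 1234 CPM) and Cd80 run the other way.

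Tlr4, named in the title of the series, encodes the endotoxin receptor. It had 339 CPM in 4T1, 528 in 67NR and 630 in naive cells (-0.89, -1.18 to -0.60), and its coreceptor Cd14 had 5380, 4834 and 4284 CPM (0.33). Ly96, the other part of the complex, had 20.1, 54.1 and 67.1 CPM and was not measured against naive cells. Neither Tlr4 nor Cd14 passed 2-fold against naive cells. Of 15 genes of the Tlr4 complex and its adaptors 6 were measured, and Irak2 alone was past 2-fold (-2.09), beside 17.4% lower and 7.75% higher of all genes measured. The genes of the NADPH oxidase, which makes superoxide, did not pass 2-fold in any of the 3 comparisons of conditions, with 7 of 8 measured in each. Of all genes measured, 25.2% passed 2-fold for 4T1 over naive, 10.2% for 67NR over naive and 13.1% for 4T1 over 67NR.

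In 67NR nodes against naive nodes, a smaller share of genes was past 2-fold than in 4T1 (25.2%) without Ccr2 and F13a1. Over all members the share was not smaller than in 4T1 (20.6%). Among all members 2324 genes were measured, of which 4.56% were past 2-fold higher and 16.7% lower (21.3% together). Without Ccr2 and F13a1 the figures were 1787 genes, 5.04% higher and 5.15% lower (10.2% together), and of the 494 genes past 2-fold among all members 270 were still measured, of which 109 kept their direction past 2-fold and 27 changed sign. The comparison uses the same naive cells as the one with 4T1, so the pair of ratios for a gene is not independent. The 10 lowest genes over all members included H2-DMb1, H2-Ab1, H2-DMa and Cd74 of MHC class II and the chemokines Ccl2, Ccl5 and Ccl7. Of the naive UMIs, 4 cells held 95.1% of Ccl2, 96.2% of Ccl5, 97.4% of Ccl7 and 74.3% of Cd74. Cd74, the invariant chain of MHC class II, had 285 CPM in 67NR and 3793 in naive cells over all members (-3.73), and 154 and 388 CPM without Ccr2 and F13a1 (-1.34). Of 24 ribosomal protein genes 23 were past 2-fold lower over all members (median -1.55), and 5 of 21 measured without Ccr2 and F13a1 (median -0.66).

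Retnlg, among the 3 most abundant transcripts of the 67NR cells, was past 2-fold higher in 67NR than in naive cells, with 22973 CPM against 10471 (1.13, 1.08 to 1.18), and 14706 in 4T1. The share of cells with a UMI differed less, at 86.1% of the 67NR cells and 81.4% of the naive cells after thinning. Krt83, a hair keratin gene, had 81.2 CPM in 67NR and 20.4 in naive cells (1.99, 0.91 to 3.33), and 10.8% and 1.69% of cells after thinning. Among B cells and fibroblasts it was detected in at most 0.985% after thinning.

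Interferon response genes were past 2-fold higher in 67NR for 3 of 15 measured (of 26), and lower for none, beside 5.04% and 5.15% of all genes measured. Ifit3 had 56.8 CPM in 67NR and 5.84 in naive cells (3.28, 1.39 to 6.35), in 12.6% and 1.64% of cells at full depth. Over all members, 13 cells from 67NR held 76.8% of the 112 Ifit3 UMIs there. Zbp1, a sensor of nucleic acids, had 120 and 29.2 CPM (2.04). Oasl2 was the other (1.38). The median of the list was 0.26, beside 0.07 over all genes measured.

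The 10 lowest genes in 67NR included Itga4, Adgre5 and Clec4n. Itga4, the integrin alpha 4 chain, had 33.6 CPM in 67NR and 190 in naive cells (-2.50, -3.02 to -1.97), and was detected after thinning in 10.3% and 33.9% of cells. Adgre5, the adhesion receptor CD97, had 91.5 and 490 CPM (-2.42). Clec4n, the fungal lectin receptor Dectin-2, had 63.9 and 303 CPM (-2.25). Nr4a1 had 41.1 and 193 CPM (-2.23) and Cxcr4 had 86.1 and 295 CPM (-1.78). In the release and ageing list, Cxcr4, Itga4 and Itgal were past 2-fold lower in 67NR and also in 4T1 against the same naive cells. Of all genes measured, 5.15% were past 2-fold lower in 67NR and 17.4% in 4T1. These genes were picked for the size of their ratios, so they do not stand for the list. Cxcr4 and Itga4 were also detected in 82.4% and 60.8% of B cells, whose median depth was 14139 UMIs. No secondary or tertiary granule gene passed 2-fold in either direction in 67NR without Ccr2 and F13a1, with medians of 0.40 and 0.30. Over all members 3 secondary granule genes were past 2-fold higher and none lower, beside 4.56% higher and 16.7% lower of all genes measured there.

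**Figure D4:**
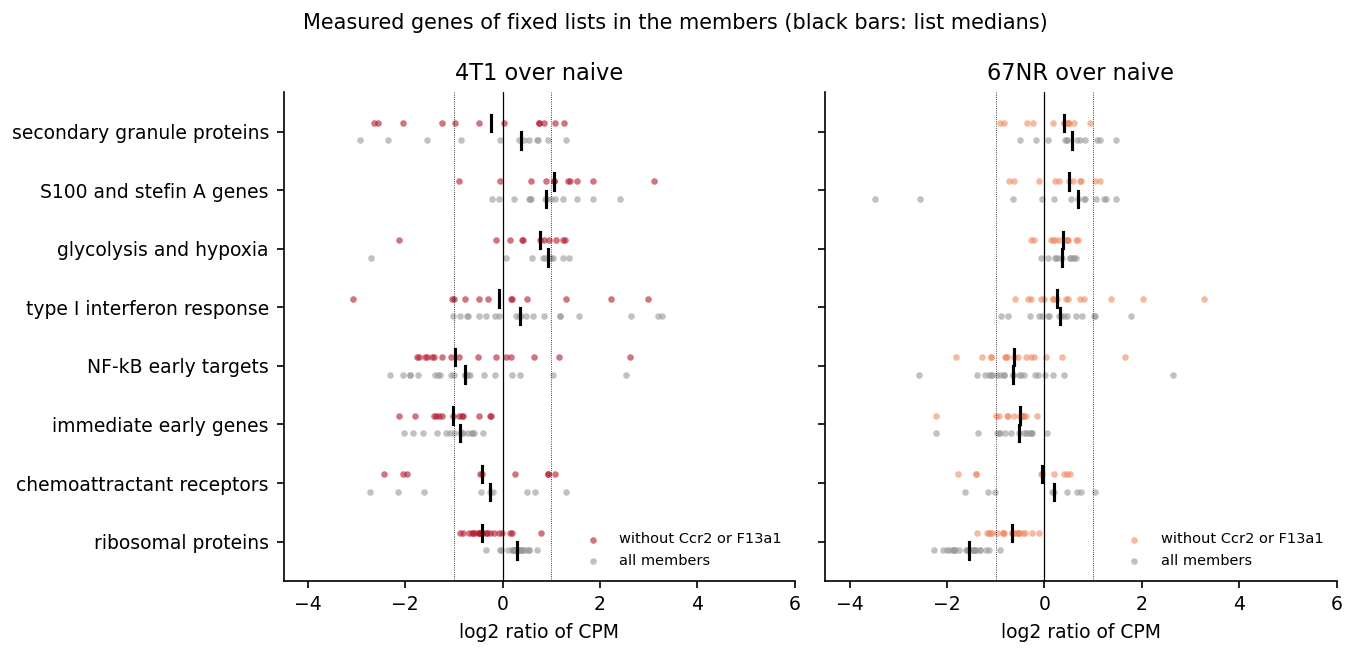
Log2 ratios of the measured genes of 8 lists in Mmp8-positive, Hcar2-negative neutrophils, for 4T1 over naive and 67NR over naive. Coloured points are without cells holding Ccr2 or F13a1 and grey points are all members. Each point is 1 gene, and black bars are the list medians of each set of cells. Without Ccr2 and F13a1, the medians of the immediate early and NF-kB lists lie below 0 in both comparisons (-1.02 and -0.97 in 4T1). That of the S100 and stefin A list then lies above 0 (1.06 in 4T1, 0.50 in 67NR).

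Between the tumours, 4T1 against 67NR, most of the genes past 2-fold over all members were no longer so once the cells with Ccr2 or F13a1 were removed. Over all members 3449 genes were measured, of which 29.4% were past 2-fold higher in 4T1 and 7.97% lower (37.3% together). Without those cells 2284 genes were measured, with 3.24% higher and 9.85% lower (13.1% together). Of the 1288 genes past 2-fold over all members, 528 were still measured, of which 182 kept their direction past 2-fold and 85 changed sign. Vcan and Cd36, genes of monocytes and macrophages, stood at log2 ratios of 7.17 (6.18 to 8.39) and 6.76 (4.23 to 12.09, with 1 Cd36 UMI in 67NR) over all members, and neither was measured after the removal. Ribosomal protein genes were past 2-fold higher in 4T1 for 23 of 24 over all members (median 1.88), and for none of 22 measured after the removal (median 0.41).

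Several genes named for 4T1 over naive were also past 2-fold higher in 4T1 than in 67NR, in a comparison that uses the same 4T1 cells. Wfdc17 had a log2 ratio of 3.36 (3.29 to 3.43), Igfbp6 of 4.51 (3.90 to 5.18), Prok2 of 2.88 (2.62 to 3.15), Stfa2 of 2.81 and Ifitm1 of 2.52. Over all members the values were 2.54, 3.88, 1.66, 1.60 and 1.62. The enzymes Ggt1, a gamma-glutamyltransferase, with 91.2 CPM in 4T1 and 5.95 in 67NR (3.94), and Lipg, endothelial lipase, with 124 and 10.3 CPM (3.59), were lower in level but almost absent from 67NR. Camk2d had 146 and 7.58 CPM (4.27), although 43.0% of 4T1 B cells carried it after thinning, against 22.5% of the 4T1 neutrophils.

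Of 19 interferon response genes measured for 4T1 over 67NR, 5 were past 2-fold lower and 1 higher, beside 9.85% lower and 3.24% higher of all genes measured. Over all members it was 6 of 24 higher and 3 lower, beside 29.4% higher and 7.97% lower of all genes measured there. Ifi209 (6.13), Ifi211 (3.04) and Ifit2 (1.82) were among the higher, none of which was measured without Ccr2 and F13a1. Without those cells Cxcl10 (-2.44), Ifit1 (-1.17), Ifit3 (-4.96), Ifit3b (-2.97) and Rsad2 (-3.26) were past 2-fold lower and Ifitm1 past 2-fold higher. Rsad2, which encodes the antiviral enzyme viperin, had 34.7 CPM in 4T1 and 332 in 67NR, and after thinning 2.50% and 26.0% of cells carried it. Over all members its ratio was -0.78, so the cells with Ccr2 or F13a1 held most of it in 4T1. Thbs1 had 89.4 CPM in 4T1 and 709 in 67NR (-2.99), and Cd80 had 111 and 336 CPM (-1.59). Of the secondary granule genes Camp (-2.33), Chil3 (-1.74), Lyz2 (-1.48) and Olfm4 (-1.21) were past 2-fold lower in 4T1, beside the same 9.85% of all genes.

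A few transcripts that are best known from other cells were also lower in 4T1. Acta2, smooth muscle actin, had 12.8 CPM in 4T1, 142 in 67NR and 87.5 in naive neutrophils (-3.47 for 4T1 over 67NR, -4.80 to -2.41). After thinning it was detected in 2.50% of the 4T1 cells, 28.7% of the 67NR cells and 22.03% of the naive cells, in no B cell, and in 3.33 to 5.91% of fibroblasts. Cd3d had 45.6 CPM in 4T1, 188 in 67NR and 134 in naive cells (-2.05, -2.69 to -1.46), with Trac and Trbc2 at 0 in each. Nt5e, the ecto-nucleotidase CD73, had 52.9, 231 and 178 CPM (-2.12), and 16.1, 16.7 and 12.1% of B cells carried it after thinning, against 5%, 30.04% and 22.03% of the neutrophils. Cd3d was detected after thinning in 12.5% of the 4T1 neutrophils, 24.7% of the 67NR neutrophils and 15.3% of the naive ones, in no B cell and in at most 1.33% of fibroblasts. Acta2 and Cd3d were thus detected more often in 67NR neutrophils than in the B cells and fibroblasts of the same nodes.

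Set against the Hcar2 neutrophils of the same condition, the cells had lower levels of 16 of 23 early NF-kB targets in 4T1, 8 in 67NR and 11 in nodes of naive mice, past 2-fold and without Ccr2 and F13a1. Secondary granule genes were past 2-fold higher for 6 of 11 measured in 4T1, none of 12 in 67NR and 7 of 11 in nodes of naive mice, and none was past 2-fold lower. Over all members 1 of 12 was higher and 1 lower in 4T1, 1 of 12 higher in 67NR and 4 of 11 higher in nodes of naive mice. Mmp8 and Hcar2 chose the cells, and the Hcar2 neutrophils did not have to hold Mmp8, itself a secondary granule gene. Granule genes and other genes that vary with either are therefore a description of the choice, with nothing read from them. Over all members 8.49% of 3428 measured genes were past 2-fold higher and 6.51% lower in 4T1, 0.591% of 4233 higher and 8.69% lower in 67NR, and 1.57% of 3117 higher and 8.47% lower in naive nodes. Without Ccr2 and F13a1 in either class, 1.95% of 2208 were higher and 14.5% lower in 4T1, 0.422% of 3793 higher and 6.09% lower in 67NR, and 1.56% of 2499 higher and 15.7% lower in naive nodes. In both directions together these came to 15% in 4T1, 9.28% in 67NR and 10% in nodes of naive mice over all members, and to 16.5%, 6.51% and 17.2% without Ccr2 and F13a1. The Hcar2 neutrophils numbered 145 in 4T1, 384 in 67NR and 338 in nodes of naive mice.

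Ltf had 980 CPM in members and 430 in Hcar2 neutrophils of 4T1 (log2 ratio 1.19), 1809 and 1004 in 67NR (0.85) and 2305 and 695 in nodes of naive mice (1.73). Ngp had 5072 and 2070 CPM in 4T1 (1.29), 9344 and 5642 in 67NR (0.73) and 7083 and 2977 in nodes of naive mice (1.25). Retnlg had 14706 and 8036 CPM in 4T1 (0.87), 22973 and 17102 in 67NR (0.43) and 10471 and 2802 in nodes of naive mice (1.90). All 3 were higher in members in every condition without Ccr2 and F13a1, and by least in 67NR. Over all members in 4T1 the ratios were -0.94 for Ltf, -0.68 for Ngp and 0.13 for Retnlg. Camp also turned with the choice of cells in 4T1, with 1.16 without Ccr2 and F13a1 and -1.74 over all members.

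Shares of cells after thinning, with 130, 345 and 287 Hcar2 neutrophils kept in 4T1, 67NR and naive nodes, gave the same order of the classes. Ngp was detected in 35.0% of members and 10.0% of Hcar2 neutrophils in 4T1, in 39.9% and 26.7% in 67NR, and in 23.7% and 8.71% in nodes of naive mice. Ly6g, the surface antigen by which mouse neutrophils are sorted, was detected in 45% and 16.2% in 4T1, 52.0% and 37.1% in 67NR, and 27.1% and 7.32% in nodes of naive mice. Adpgk, a kinase of glucose, and Nt5e were also higher, with log2 ratios of 1.42 and 1.51 in 4T1, 0.91 and 0.86 in 67NR, and 2.09 and 2.01 in nodes of naive mice, where Nt5e in 4T1 fell short of 50 UMIs.

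Genes lower in members included Ccrl2, Gadd45b, Ccl3 and Icam1, which also describe the choice of cells. Ccrl2, a receptor that binds chemerin, had 113 CPM in members and 1314 in Hcar2 neutrophils of 4T1 (-3.54, -3.93 to -3.17), 166 and 868 in 67NR (-2.39, -2.56 to -2.21), and 441 and 1998 in nodes of naive mice (-2.18, -2.43 to -1.95). Gadd45b, a stress response gene, stood at -3.05 in 4T1, -2.13 in 67NR and -1.76 in nodes of naive mice. Ccl3, a chemokine, stood at -1.34, -2.70 and -2.65. Icam1, an adhesion molecule, stood at -1.57, -2.30 and -1.27.

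All 23 early NF-kB targets were measured, and 16 were past 2-fold lower in 4T1, 8 in 67NR and 11 in nodes of naive mice. Cxcl3 in 67NR (1.02) was the one past 2-fold higher. The medians were -1.19, -0.81 and -0.92, beside -0.33, -0.15 and -0.35 over all genes measured. Nfkbia, the inhibitor that NF-kB itself induces, stood at -1.65 in 4T1, -1.19 in 67NR and -1.62 in nodes of naive mice. Il1b differed less, at -0.63, -0.29 and -0.54. Interferon response genes were past 2-fold lower for 9 of 18 measured in 4T1, 9 of 21 in naive nodes and none of 20 in 67NR. Of all genes measured, 14.5%, 15.7% and 6.09% were past 2-fold lower in 4T1, naive nodes and 67NR. Cxcl10 was past 2-fold higher in 67NR (1.26).

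Tlr4, Cd14 and Cxcr2 did not pass 2-fold between the classes. Tlr4 stood at -0.30 in 4T1, -0.27 in 67NR and -0.14 in nodes of naive mice. Cd14 stood at -0.21, -0.13 and 0.05, and Cxcr2, the receptor that draws neutrophils to chemokines, at 0.21, 0.22 and -0.02. No NADPH oxidase gene passed 2-fold in any condition, beside 16.5% of all genes measured in 4T1, 6.51% in 67NR and 17.2% in nodes of naive mice.

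**Figure D5:**
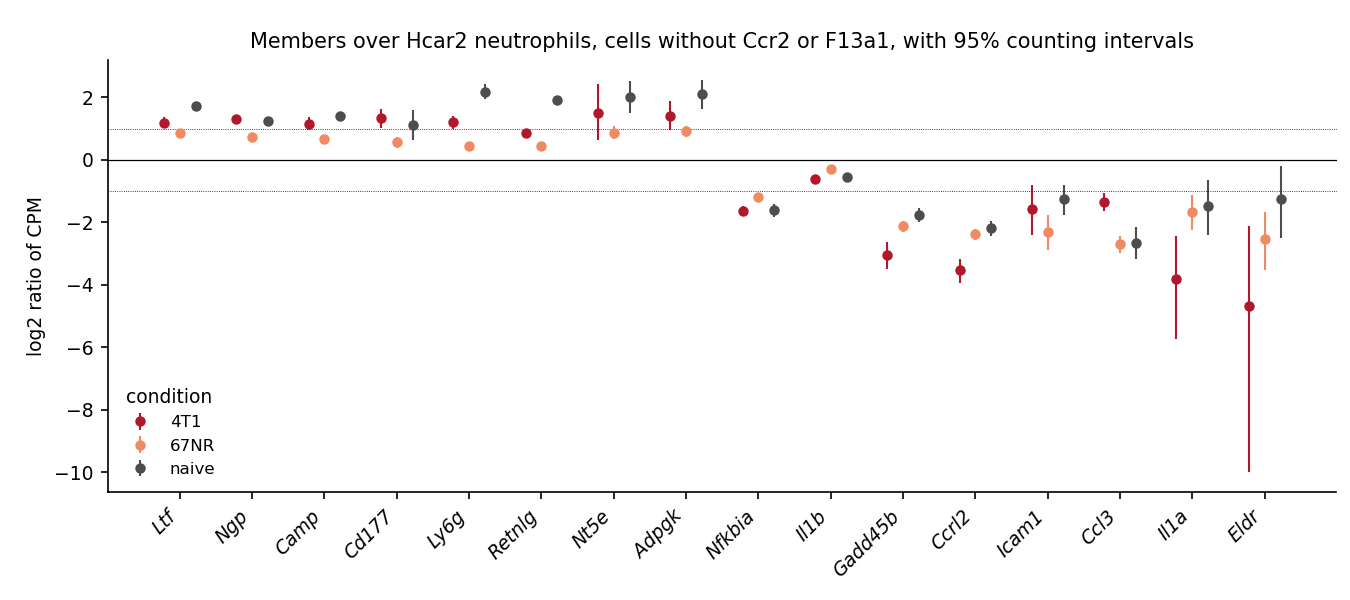
Log2 ratio of levels in Mmp8-positive, Hcar2-negative neutrophils over Hcar2 neutrophils of the same condition (4T1, 67NR, naive) for 16 genes, without cells holding Ccr2 or F13a1, with exact 95% counting intervals. Ltf and Ngp lie above 0 in all 3 conditions (over all members they lie below 0 in 4T1), while Ccrl2 and Gadd45b lie below -1 in all 3.

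The cells were not uniform. Across cells without Ccr2 and F13a1, the summed level of Ltf, Camp, Ngp, Lcn2, Chil3 and Cd177 went with the calprotectin share, with Spearman's rho of 0.77 over 41 cells from 4T1, 0.79 over 231 from 67NR and 0.66 over 61 from naive nodes. It went against the summed level of Il1b, Cxcl2, Ccl3, Ccl4, Nfkbia and Tnfaip3, with rho of -0.48, -0.51 and -0.46. Depth went with the calprotectin share too (rho 0.77, 0.77 and 0.43). These are descriptions over cells of 1 library, which share its depth and its scaling to a common total per cell, and the part of depth was not tested.

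The median cell had a granule sum of 2320 CPM in 4T1 (quartiles 381 and 8359), 1727 in 67NR (361 and 7519) and 384 in nodes of naive mice (0 and 1643). The inflammatory sum had medians of 12041 CPM in 4T1, 12187 in 67NR and 16915 in nodes of naive mice. The median cell was thus lowest in granule transcripts and highest in inflammatory ones in naive nodes, although the naive sums of Ltf and Camp, carried by 3 cells, were the highest of the conditions.

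The same rule found few such cells in the other gene libraries: 10 in an atlas of naive axillary nodes, 1 in the stromal library, 1 in the T cell library and none in a mediastinal atlas. The axillary atlas was stained with antibodies. Its 10 members had a median Ly6G antibody count of 521 (337 to 1052), beside 845 (465 to 1247) in 7 Hcar2 neutrophils and 2 in 2420 B cells. Antibody counts were not normalized. Ngp was detected in 6 of the 10 members and 3 of the 7 Hcar2 neutrophils. Ccr2 and F13a1 had no UMI in these members, and Wfdc17 had 2 UMIs in 1 of them. With 10 cells, no level is set against the tumour nodes.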

How the data were processed

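Droplet 3' RNA libraries and matched antibody libraries were used, per the labels' protocols. The authors deposited raw UMI counts of each gene and antibody for every barcode, and Cell Ranger 7.0 with mm10 is named in the submitters' processing notes. Whether introns were counted is not given in the sources used here. The myeloid and stromal library held 7823 barcodes, 32285 genes and 94930947 UMIs.

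Cells kept had at least 500 UMIs, at most 10% mitochondrial UMIs, and a leading hashtag of at least 10 counts and at least 3 times the next. Of 6530 cells of that quality, 1117 (17.1%) had no called hashtag and were left out. Median depth of the cells used was 17445 UMIs in 4T1, 9594.5 in 67NR and 8834 in nodes of naive mice. Of all barcodes, 1.48% also occurred in another library of the series, and 1 member barcode did.

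UMIs were summed per condition and divided by the total. Intervals for ratios were exact conditional binomial, for sums exact Poisson and for shares Clopper-Pearson, at 95%. A group at 0 was set to 3 UMIs. Thinning drew UMIs without replacement (1000 or 2500 per cell). Since a condition was 1 sample, no test was run. The genes named were the 10 highest and 10 lowest ratios among measured genes (50 UMIs or more where the level was higher) with a UMI in at least 10% of its cells and an interval without 0, the leading genes of each list, and S100a8, S100a9, Csf3r, Mmp8, Retnlg, Hcar2, Tlr4, Cd14 and Ly96. Other genes named, such as Lcn2, Il1b and Elane, were picked after their values were seen. The members and gene lists were chosen with earlier results of these data known. The ratio and interval steps were tested on simulated data. Python 3.11.15 with numpy 2.4.6, scipy 1.17.1, pandas 2.3.3 and matplotlib 3.10.9 was used. Promoter sequences came from RefSeq and gene positions from the GENCODE annotation, both of GRCm38.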

Additional observations from a re-analysis of the deposited data

Results flagged for a closer look

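The Ly6G antibody count of the atlas members, 521 at the median of 10 cells, belongs to data outside the compared library, and stood above the 2 counts of B cells in the same atlas. The antibody data cover naive nodes only, so they say nothing of the tumour groups.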

How the results depend on the processing

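Each condition was 1 sample of at least 3 mice, so none of these values carries the spread between animals. Depth differed between conditions, and genes with few UMIs have wide intervals. No paired analysis was possible because each condition had 1 hashtag in 1 library. The planned limit of under 10 counts on the second hashtag could not give a value, since all 394 members had a second hashtag at or above it. Counts of genes past 2-fold are listed in the order 4T1 over naive, 67NR over naive, 4T1 over 67NR, then members over Hcar2 neutrophils in 4T1, 67NR and naive nodes, and stood at 567, 494, 1288, 514, 393 and 313. With 20 UMIs as the minimum they were 1201, 1141, 2516, 1113, 984 and 728, and with 3 UMIs 3106, 3886, 5440, 3267, 3095 and 2139. When whole cells were thinned to 1000 UMIs before the rule was applied, the counts were 19, 16, 39, 23, 65 and 74, the shares of cells used were 1.30% in 4T1, 5.89% in 67NR and 1.18% in nodes of naive mice, and those of the gate 13.3%, 23.3% and 5.43%. Without the Hcar2 condition the shares were 10.2%, 27.9% and 7.94% of cells used and 58.2%, 63.4% and 26.8% of the gate, and 932 genes were past 2-fold for 67NR over naive. With at least 2 Mmp8 UMIs the shares were 3.33%, 11.4% and 1.83% of cells used and 19.0%, 26.0% and 6.20% of the gate, with 374 genes for 4T1 over naive and 533 over Hcar2 neutrophils in naive nodes. A calprotectin share of at least 2% gave 809 genes for 4T1 over 67NR, and a hashtag 10 times the next gave 298 for 67NR over naive.

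Without Ccr2 and F13a1, added after seeing the data, the 4T1 share was 2.73% of cells used and 15.6% of the gate. The denominators of these shares still held the cells with either gene. The naive share was then 2.80% of cells used, above that of 4T1, and 9.46% of the gate. The counts were 315 for 4T1 over naive, 182 for 67NR over naive, 299 for 4T1 over 67NR and 247 over Hcar2 neutrophils in 67NR. In cells of 3000 to 10000 UMIs, also added later, the counts were 156, 120 and 239 between conditions, and 173 in 4T1 and 135 in 67NR over Hcar2 neutrophils. Without the 5% of members with the most UMIs, 187 genes were past 2-fold over Hcar2 neutrophils in 67NR. In every alternative that gave a share, 67NR had the highest share of the gate and naive nodes the lowest.

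Some values changed sign without being counted as turned, such as Ltf and Ngp over Hcar2 neutrophils in 4T1 without Ccr2 and F13a1. Among the single genes and list medians reported, 8 values were counted as turned. Camp over Hcar2 neutrophils in 4T1 was 0.38 without the 5% of members with the most UMIs, 0.11 with the mean of per-cell CPM and 1.16 without Ccr2 and F13a1. Gadd45b for 4T1 over naive was 2.32 after thinning to 1000 UMIs, on 19 and 5 UMIs. The heat shock median for 4T1 over 67NR was -0.28 without Ccr2 and F13a1 and -0.39 in cells of 3000 to 10000 UMIs, where Ccr7 and Ngp for 67NR over naive were 0.41 and -0.63. The cause was not tested. Median-ratio scaling moved the median of all genes measured from 0.21 to 0.33 for 4T1 over naive, from -0.07 to 0.23 for 67NR over naive and from 0.31 to -0.04 for 4T1 over 67NR. The share of genes past 2-fold that were higher was then 68.8%, 48.3% and 61.4%, beside 54.0%, 21.5% and 78.6% with total UMIs, and 40.9% beside 56.6% over Hcar2 neutrophils in 4T1. Scaling without S100a8 and S100a9 gave 40.0% for 67NR over naive, and the mean of per-cell CPM 69.2% for 4T1 over naive and 33.9% for 67NR over naive. Of the single genes and list medians under all alternatives, 3428 values stayed close (within the interval of a gene's ratio, or 0.5 of a list's median), and 942 moved further. Of all genes past 2-fold in the 6 comparisons, those still measured after thinning to 1000 UMIs were 17, 21, 43, 8, 9 and 27. Of these, 10, 8, 16, 8, 8 and 21 kept their direction past 2-fold, and 1, 8, 4, 0, 0 and 0 changed sign. In cells of 3000 to 10000 UMIs 170, 191, 287, 164, 130 and 153 were still measured. Of these, 71, 61, 96, 72, 89 and 111 kept their direction past 2-fold, and 3, 43, 62, 12, 5 and 8 changed sign.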

Other observations

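Some genes of lists that the comparisons above leave out were past 2-fold without Ccr2 and F13a1, beside 25.2% of all genes measured for 4T1 over naive, 10.2% for 67NR over naive and 13.1% for 4T1 over 67NR. Irf1, an interferon-induced transcription factor, was past 2-fold higher in 4T1 over naive (log2 ratio 1.63) and over 67NR (1.12). Cebpe, a factor of secondary granule genes, was past 2-fold higher in 67NR over naive (1.21) and lower in 4T1 over 67NR (-1.89). Over all members, 13 cells from 67NR held 82.7% of the 52 Cebpe UMIs there. Of 8 survival and death genes measured for 4T1 over naive, Bcl2l1 was past 2-fold higher (1.04) and Bcl2a1b, Bcl2a1d and Gadd45b lower. Of 15 C-type lectins and Fc receptors 3 were past 2-fold, a share below that of all genes: Fcgr3 was past 2-fold higher (1.06) and Clec4d (-1.06) and Clec4n (-1.79) lower. Alox5ap, which feeds leukotriene synthesis, was past 2-fold higher in 4T1 over naive (1.15), and Lta4h, which makes leukotriene B4, in 67NR over naive (1.38). Over all members, 13 cells from 67NR held 82.6% of the 69 Lta4h UMIs there. No MHC class I gene of 6 measured for 4T1 over naive and 5 for 67NR over naive passed 2-fold.

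Cd274, which encodes the checkpoint ligand PD-L1, was past 2-fold lower in 4T1 over naive (-1.64) and in 67NR over naive (-1.78), and in members over Hcar2 neutrophils of 4T1 (-2.15) and 67NR (-1.28). S100a4 was past 2-fold lower in members than in Hcar2 neutrophils in 67NR (-2.16) and in naive nodes (-2.34). These genes were picked after their values were seen.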
